A study of Homo sapiens with 6 samples.

Results

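The genes described here are 10 genes of integrin-mediated adhesion, namely 7 integrin chains (*ITGA2*, *ITGA3*, *ITGA5*, *ITGAV*, *ITGB1*, *ITGB5* and *ITGB6*) and 3 focal adhesion core proteins (*PTK2*, *TLN1* and *VCL*). They were taken from the count table by their symbols, 10 of the 20381 genes listed, and the integrin chains *ITGA6* and *ITGB4* were left out of the choice because they serve hemidesmosomes. Poly(A) RNA was sequenced from HCCLM3, a human hepatocellular carcinoma cell line, to ask what overexpression of *PON1*, which encodes a paraoxonase secreted by the liver, changes in the transcriptome. There were 3 libraries of cells carrying a *PON1* lentivirus (PON1-OE) and 3 of cells carrying the control lentivirus (NC), which the design text calls an empty vector. Both groups shared the host line and the lentiviral procedure. The methods describe stable lines screened with puromycin, while the design text places lysis 24 hours after transfection in medium with 15% serum, so the time since transduction is not settled. No source says whether the 3 libraries of a group came from separate cultures or transductions, and the p-values therefore measure the spread between libraries, which may be technical.

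Integrins are cell surface receptors made of an alpha and a beta chain, and the pair decides which matrix protein is bound. Inside the cell, talin binds the tail of the beta chain and switches the receptor to its active state, vinculin strengthens the link from talin to actin, and focal adhesion kinase sends the adhesion signal on. In hepatocellular carcinoma these receptors are known for their part in attachment, migration and survival on a stiffened matrix.

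Promoter sequences were available from RefSeq (GRCh38.p14) for 8 of the 10 genes, with no match for *ITGA3* and *PTK2*. Each window runs 5′ to 3′ on the strand of the gene, from 250 bases before the start site to 50 bases after it. The promoters of *ITGA2*, the alpha chain with the largest log2FC among the 9 genes tested, and of *ITGB1*, its beta partner whose values did not separate the groups, are shown because they contrast a called and an uncalled chain of the same receptor. Capitals mark matches on either strand to GGGCGG (the core bound by SP1) and GGAATG (the TEAD core), and no match overlaps another. TGANTCA (AP-1) and the CArG box of SRF were also searched, and neither has a match in these windows.
*ITGA2* chr5:52989102-52989401, plus strand: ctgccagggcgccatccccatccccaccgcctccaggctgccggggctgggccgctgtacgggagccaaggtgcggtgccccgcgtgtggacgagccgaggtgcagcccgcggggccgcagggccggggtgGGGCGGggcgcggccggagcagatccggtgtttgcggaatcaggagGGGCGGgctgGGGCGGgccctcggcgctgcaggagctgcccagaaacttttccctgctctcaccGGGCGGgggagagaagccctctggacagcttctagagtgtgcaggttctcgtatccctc
*ITGB1* chr10:32958181-32958480, minus strand: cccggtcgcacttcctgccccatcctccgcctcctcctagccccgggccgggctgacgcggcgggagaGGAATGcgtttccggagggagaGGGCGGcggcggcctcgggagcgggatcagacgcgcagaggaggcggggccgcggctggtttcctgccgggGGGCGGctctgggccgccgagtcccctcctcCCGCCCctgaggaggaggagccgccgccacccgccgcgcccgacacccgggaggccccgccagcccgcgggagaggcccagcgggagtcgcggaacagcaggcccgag
The *ITGA2* window holds 4 matches to the SP1 core, and the *ITGB1* window holds 3, with 1 TEAD match. Among the 8 promoters, 6 held the SP1 core (*ITGA2*, *ITGA5*, *ITGB1*, *ITGB5*, *TLN1* and *VCL*), against 45.0% of 35116 promoters of the same length. The TEAD core was in 3 (*ITGA5*, *ITGB1* and *VCL*), against 14.0%, the AP-1 core in 1 (*ITGA5*), against 7.71%, and the CArG box in 1 (*ITGB6*), against 1.29%. These matches describe letters in the window and were not tested as binding sites.

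The libraries held 15706672 to 17948383 estimated counts, and 3 counts, used as the detection floor, correspond to 0.166 to 0.192 CPM, the usual per-library count scale with TMM factors applied. *PON1* had 0, 2 and 3 counts in NC and 155, 181 and 167 in PON1-OE, so the overexpression was present in every library labelled with it. The liver transcription factor *HNF4A* averaged 78.6 CPM in NC and 80.2 in PON1-OE. Of the epithelial markers, the keratins *KRT8* (2410 and 2352) and *KRT18* (1528 and 1596) were high. The others were low: *CDH1* averaged 14.3 and 12.4 CPM, *KRT19* 3.97 and 3.95, and *EPCAM* had 0 to 8 counts. Of 12 hepatocyte and liver cancer markers, 8 were above the floor in all libraries. *GPC3* had no count, *TTR* and *SERPINA1* had at most 2, and *APOA1* had 0 to 5. *ALB* had 4 to 13 counts, so albumin, the defining product of the hepatocytes named in the labels, was near the floor. *AFP*, *FGB* and *AHSG*, also among the 8, averaged at most 1.02 CPM in either group. Of 5 leukocyte markers, 4 had no count in any library, *PTPRC*, *CD3E* and *LYZ* among them. The exception was *CD68*, which averaged 215 CPM in NC and 235 in PON1-OE, and the list summed to 206 to 226 CPM in NC and 224 to 248 in PON1-OE. The summed fibroblast markers spanned 16.03 to 21.0 CPM in NC and 16.7 to 20.2 in PON1-OE. Of 5 endothelial markers, 3 were above the floor in all libraries and the defining *CDH5* had at most 1 count. Their sum spanned 22.1 to 24.8 CPM in NC and 25.3 to 28.0 in PON1-OE, and the part of either list in the results was not tested. In bulk RNA, fewer cells expressing a gene and less of its RNA per cell cannot be told apart.

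*ITGA2* and *ITGA3* rose in PON1-OE cells, by 1.19-fold and 1.12-fold, while *ITGB1*, the beta chain they share, had a log2FC of -0.01. Differences were small throughout, with log2FC from -0.08 to 0.25 over the 9 genes that passed the filter on low counts. *ITGB6* did not pass it. The log2FC is PON1-OE over NC, from the quasi-likelihood test of edgeR. A gene was called at an adjusted p under 0.05, with the Benjamini-Hochberg method applied to all 11958 tested genes. By that rule 2 of the 9 genes were higher and 0 lower, against a background of 0.502% of all genes higher and 0.176% lower. The genes were chosen with earlier results of these data known. Counts set beside background shares therefore describe them and are not a test of the set. At an unadjusted p under 0.05, 6 were higher (*ITGA2*, *ITGA3*, *ITGA5*, *ITGB5*, *TLN1* and *VCL*) and 0 lower, against 5.91% and 5.17%. In 5 genes every PON1-OE library lay above every NC library, against 8.32% of all genes, and in 1 gene, *PTK2*, every one lay below, against 7.74%. Of the 9 genes, 6 had a log2FC above 0, as did 49.0% of all genes, and their median was 0.10, beside -0.0025 over all genes tested. Highly expressed genes are called more often, and among the 2600 genes at or above the level of *ITGA2*, the lowest of the 9, the shares higher were 1.54% after adjustment, 11.1% unadjusted and 13.3% without overlap. The shares lower at that level were 0.269%, 6.85% and 9.04%, and 52.4% had a log2FC above 0. No member reached a 1.5-fold change, and with 3 libraries against 3 an exact permutation test of a single gene cannot give a p below 0.1.

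**Figure D1:**
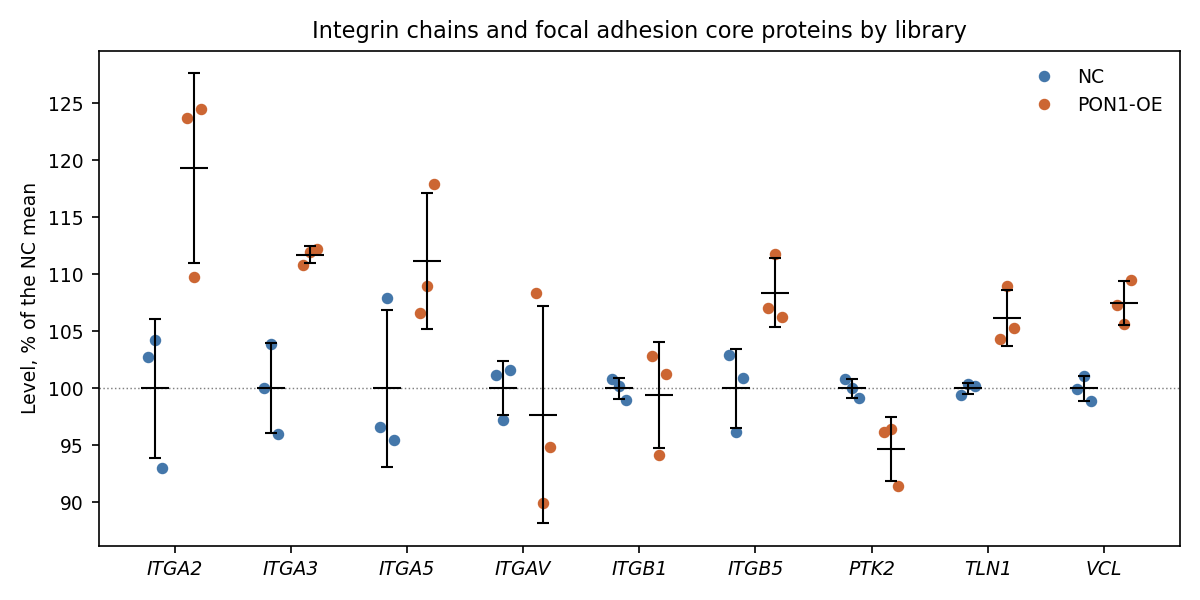
Level as a percentage of the NC mean of each gene (vertical axis, not starting at 0) in the 3 NC and 3 PON1-OE libraries (points) of the 9 tested genes, with the group mean and SD as bars. All PON1-OE points lie above the NC points for *ITGA2*, *ITGA3*, *ITGB5*, *TLN1* and *VCL* and below them for *PTK2*, and they lie on both sides for *ITGAV* and *ITGB1*.

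Among the alpha chains, *ITGA2* (chr5:52989326-53094779, plus strand, GRCh38) encodes the chain that pairs with *ITGB1* as a collagen receptor. Its level was 80.9, 82.1 and 73.2 CPM in NC libraries 1, 2 and 3, and 97.4, 86.4 and 98.1 CPM in PON1-OE libraries 1, 2 and 3. All PON1-OE libraries were above all NC libraries, with the narrowest gap between NC 2 and PON1-OE 2. The mean went from 78.7 ± 4.80 to 94.0 ± 6.54 CPM (SD, n = 3), a log2FC of 0.25 (SE 0.058, 95% interval 0.13 to 0.38, edgeR adjusted p = 0.0433). Leaving out NC 1, NC 3, PON1-OE 1 or PON1-OE 3 ended the call, with adjusted p = 0.118, 0.345, 0.144 and 0.240, while the log2FC stayed between 0.21 and 0.31.

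*ITGA3* (chr17:50055968-50090481, plus strand) encodes the chain that forms a laminin receptor with *ITGB1*. It had 932, 968 and 895 CPM in the NC libraries and 1033, 1043 and 1046 CPM in those of PON1-OE, where the 3 libraries lay closer together than in NC. The groups did not overlap, and the mean went from 931 ± 36.7 to 1040 ± 6.94 CPM (SD, n = 3). The log2FC was 0.16 (SE 0.034, 95% interval 0.089 to 0.23, edgeR adjusted p = 0.0294). This call too ended without NC 1, NC 3, PON1-OE 1 or PON1-OE 3, at adjusted p = 0.155, 0.256, 0.0569 and 0.141, with the log2FC between 0.13 and 0.19.

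*ITGA5* (chr12:54395261-54419460, minus strand) encodes the fibronectin receptor chain, also a partner of *ITGB1*. NC libraries had 160, 178 and 158 CPM and PON1-OE libraries 176, 180 and 195 CPM, so that NC 2 lay above PON1-OE 1 and the groups overlapped. The log2FC of 0.15 (SE 0.050) did not pass (edgeR adjusted p = 0.217), but without NC 2 it was 0.21 with adjusted p = 0.0377. *ITGAV* (chr2:186590065-186680901, plus strand) encodes the chain that pairs with *ITGB1*, *ITGB5* or *ITGB6* and binds vitronectin, fibronectin and latent TGF-beta. Its values were 186, 179 and 187 CPM in NC against 199, 165 and 174 CPM in PON1-OE, where the highest and the lowest value of all 6 libraries both stood. The log2FC was -0.03 with a 95% interval of -0.14 to 0.077, and its sign turned to 0.025 without PON1-OE 2.

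Of the beta chains, *ITGB1* (chr10:32900319-33005792, minus strand) partners most of the alpha chains above. Its level was 732, 728 and 720 CPM in the NC libraries and 747, 684 and 736 CPM in those of PON1-OE, and both extremes were again PON1-OE libraries. The 95% interval of its log2FC ran from -0.083 to 0.066 (edgeR adjusted p = 0.959), so a change of the size seen in *ITGA2* lay outside it. The sign is not determined, since the log2FC was 0.030 without PON1-OE 2. *ITGB5* (chr3:124761948-124901418, minus strand), the vitronectin receptor partner of *ITGAV*, had 256, 239 and 251 CPM in the NC libraries and 266, 278 and 264 CPM in those of PON1-OE. The groups did not overlap, and the log2FC of 0.12 (SE 0.039) had an edgeR adjusted p = 0.226. *ITGB6* (chr2:160099666-160200313, minus strand) encodes an epithelial chain that binds latent TGF-beta with *ITGAV*, and it had 4, 0 and 0 counts in NC and 4, 0 and 2 in PON1-OE. Most of these values are at or under the floor of 3 counts, and no fold is given.

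Of the 3 core proteins, none passed the test after adjustment. *TLN1* (chr9:35696948-35732395, minus strand), the gene of talin-1, had 545, 550 and 549 CPM in the NC libraries and 571, 597 and 577 CPM in those of PON1-OE, a log2FC of 0.09 (SE 0.033, edgeR adjusted p = 0.313). *VCL* (chr10:73995193-74121363, plus strand), the gene of vinculin, had 324, 328 and 321 CPM in the NC libraries and 348, 343 and 355 CPM in those of PON1-OE, a log2FC of 0.10 (SE 0.035, edgeR adjusted p = 0.228). All PON1-OE libraries were higher for both genes, and neither passed the threshold. *PTK2* (chr8:140657900-141002216, minus strand), the gene of focal adhesion kinase, had 160, 158 and 157 CPM in the NC libraries and 152, 153 and 145 CPM in those of PON1-OE. All PON1-OE libraries were lower, and the log2FC of -0.08 (SE 0.041, 95% interval -0.16 to 0.0072) had an edgeR adjusted p = 0.503. Exons of *VCL* overlap those of *AP3M1* on the other strand over 1109 bases, and exons of *TLN1* overlap those of *CREB3* over 61 bases. The sources do not state strand-aware counting, so reads there cannot be told apart, and *AP3M1* (log2FC 0.06) and *CREB3* (log2FC -0.01) did not pass the test.

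**Figure D2:**
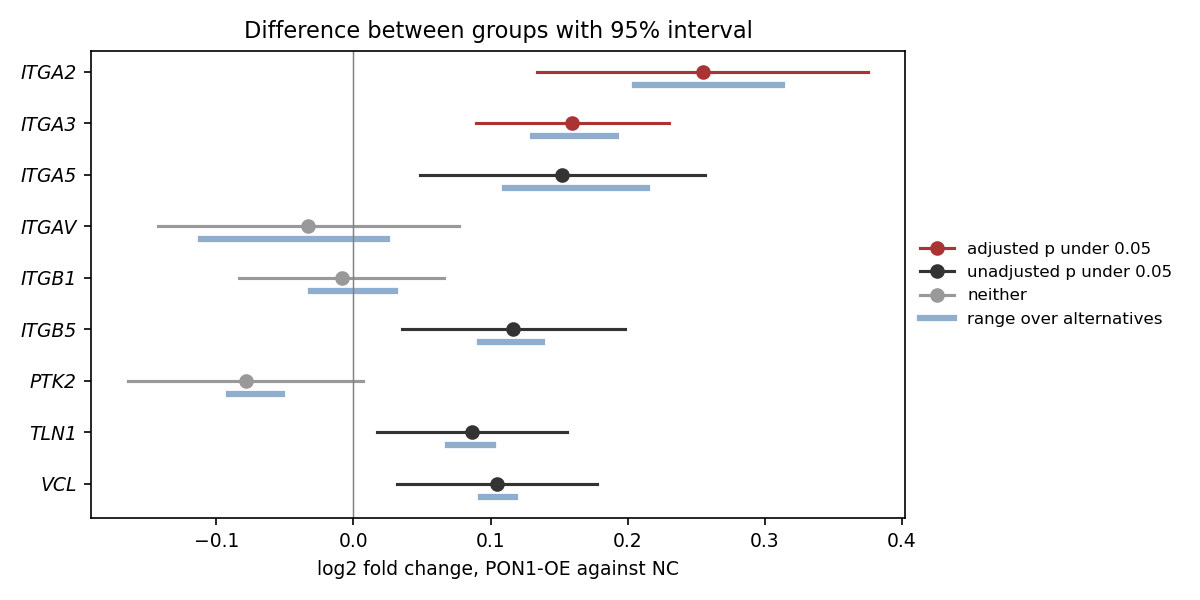
log2FC of PON1-OE over NC (horizontal axis) for the 9 tested genes, with the 95% interval from edgeR (thin line) and the range over 14 alternative settings (thick line below). The intervals of *ITGA2*, *ITGA3*, *ITGA5*, *ITGB5*, *TLN1* and *VCL* lie above 0, and those of *ITGAV*, *ITGB1* and *PTK2* include it. Intervals are not adjusted for the number of genes tested, and only *ITGA2* and *ITGA3* passed after adjustment.

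The place of each library within its group was counted for these genes only. NC 3 was lowest in its group for 6 of the 9 tested genes and NC 2 was highest for 5, while PON1-OE 2 was lowest for 4 and PON1-OE 3 highest for 4. The shares over all genes were not counted, so these places are not read as a trait of a library. The median log2FC of all genes moved with GC content, from -0.025 in the lowest of 5 equal classes of GC to 0.011 in the next-to-highest. *ITGA2*, *ITGAV* and *ITGB1* belong to the lowest class and *ITGA3* to the highest. With the GC and length trends of each library removed, the log2FC was 0.27 for *ITGA2* (limma-trend adjusted p = 0.00814) and 0.16 for *ITGA3* (limma-trend adjusted p = 0.0122), and that of *ITGB1* turned to 0.0071.

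Levels of different genes were compared as CPM per kilobase of merged exons. In NC, *ITGB1* stood highest at 121 ± 1.10, followed by *ITGA3* at 95.03 ± 3.75 and *TLN1* at 54.4 ± 0.266 (SD, n = 3). *ITGB5* (38.6 ± 1.33), *VCL* (32.5 ± 0.353), *ITGAV* (22.4 ± 0.533) and *ITGA5* (21.8 ± 1.501) came next, then *PTK2* (11.5 ± 0.0944) and *ITGA2* (9.96 ± 0.607). Over the 6 libraries, the ranges of *ITGAV* and *ITGA5* overlapped, as did those of *PTK2* and *ITGA2*, and every other pair of neighbours was separate. The order depends on the length used: per kilobase of the principal transcript, *ITGB1* and *ITGA3* overlapped, at 192 and 191 CPM per kilobase in NC. In PON1-OE they averaged 191 and 213 on that length, with *ITGA3* above *ITGB1* in every library. The place of *PTK2* changed too, since its merged exons span 13.7 kilobases and its principal transcript 4.955. Per kilobase of the principal transcript, *PTK2* averaged 31.96 in NC and *ITGAV* 26.2. Over the 6 libraries, *PTK2* then lay above *ITGAV* and no longer overlapped *ITGA2*. *VCL*, below *ITGB5* with merged exons, overlapped it on this length, at 59.1 and 56.9 in NC.

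Among the 4 alpha chains, *ITGA3* made up 63.7% of the summed level per kilobase in NC and 64.7% in PON1-OE, *ITGAV* 15.0% and 13.3%, *ITGA5* 14.6% and 14.8%, and *ITGA2* 6.67% and 7.23%. The groups overlapped for each of these shares. With principal transcript lengths, the NC shares were 72.2% for *ITGA3*, 14.1% for *ITGA5*, 9.93% for *ITGAV* and 3.79% for *ITGA2*, so *ITGAV* fell below *ITGA5*. On that length the *ITGA3* share did not overlap between the groups, at 71.9 to 72.4% in NC and 72.43 to 73.97% in PON1-OE. Among the 3 beta chains, *ITGB1* made up 75.8 ± 0.649% in NC and 74.2 ± 1.42% in PON1-OE (SD, n = 3), with every PON1-OE library below every NC library. The remainder was almost wholly *ITGB5*, at 24.2% and 25.8%. The separation of the *ITGB1* share largely restates *ITGB5*, already seen higher in every PON1-OE library, and is not a separate test. The level of *ITGB1* itself overlapped between the groups.

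**Figure D3:**
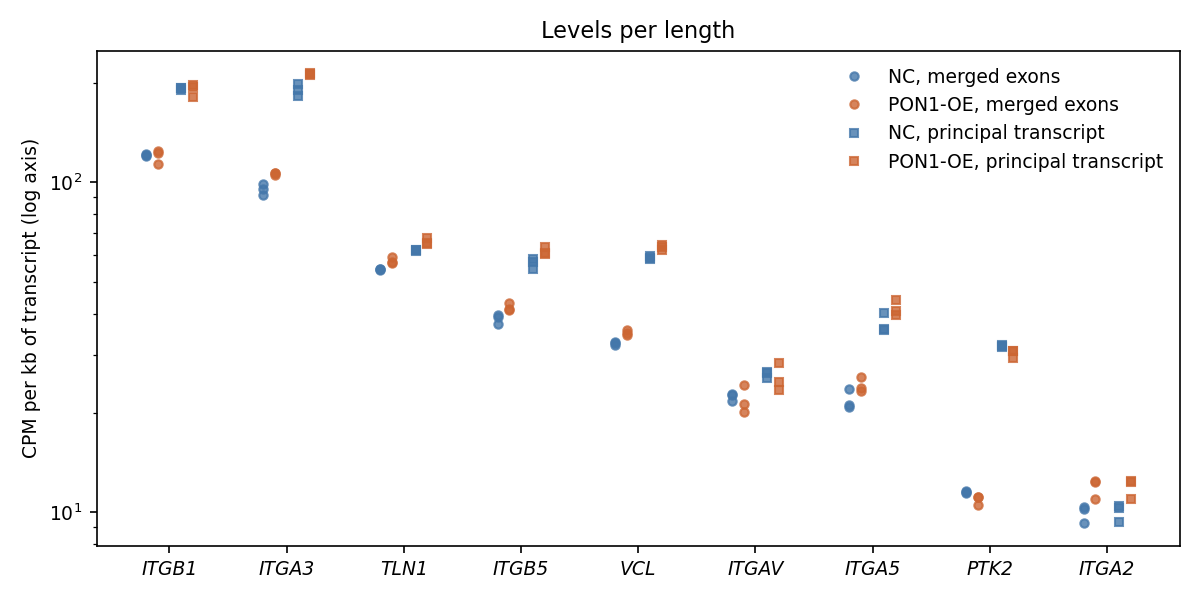
Level in CPM per kilobase (log axis) of the 9 tested genes in the 3 NC and 3 PON1-OE libraries, with circles for merged exon length and squares for principal transcript length. With merged exons *ITGB1* lies highest, at 121 in NC, and *ITGA2* lowest, at 9.96. With the principal transcript *ITGA3* lies level with *ITGB1* in NC and above it in PON1-OE.

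Ratios within a library do not depend on its scaling, and 8 were compared. *ITGA2* over *ITGB1* was higher in every PON1-OE library, by 0.26 on the log2 scale, and *ITGA3* over *ITGB1* by 0.17. The ratio of *TLN1* to *PTK2* was higher by 0.17 and that of *VCL* to *PTK2* by 0.18, again without overlap. Each of these 4 reached the smallest p the design allows (exact permutation test, two-sided, p = 0.1, adjusted p = 0.16 over the 8). The ratios were added after the levels were seen. These 4 set genes already seen higher in every PON1-OE library over *ITGB1*, seen flat, or *PTK2*, seen lower. Their lack of overlap largely restates those levels and is not a separate test. *ITGA5* over *ITGB1* differed by 0.16 with overlap (exact p = 0.2), *ITGAV* over *ITGB5* by -0.15 (exact p = 0.4, -0.074 without PON1-OE 2 and -0.24 without PON1-OE 1) and *ITGAV* over *ITGB1* by -0.03 (exact p = 0.7).

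The integrin of hemidesmosomes joins a beta chain to a partner alpha chain. *ITGB4* rose from 270 ± 5.48 to 319 ± 11.9 CPM (SD, n = 3), a log2FC of 0.24 with an edgeR adjusted p = 0.00421 (0.0651 without NC 3), while its partner *ITGA6* had a log2FC of 0.10 with an adjusted p = 0.406, and 0.051 without PON1-OE 1. The ratio of *ITGA6* to *ITGB4*, also added after the levels were seen, was lower in every PON1-OE library, by -0.15 on the log2 scale (exact permutation p = 0.1, adjusted 0.16). Of the 19 integrin chains outside the 10 genes, 12 passed the filter. At an unadjusted p under 0.05, 2 were higher and 0 lower, against 5.91% and 5.17% of all genes, and the median log2FC was 0.10. That median is imprecise. Apart from *ITGA6* and *ITGB4*, these chains averaged at most 11.1 CPM in either group, with SE of the log2FC from 0.13 (*ITGB7*) to 0.40 (*ITGB2*). After adjustment 1 (*ITGB4*) was higher, against 0.502%.

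The proteins that act with integrins were read from 4 further lists, also chosen with earlier results of these data known. Among genes at or above the level of *ITGA2*, 11.1% were higher and 6.85% lower at an unadjusted p under 0.05. After adjustment the shares were 1.54% and 0.269% at that level, and 0.502% and 0.176% over all genes. Of 21 activators, inhibitors and membrane partners, 20 were tested, with 4 higher and 1 lower at an unadjusted p under 0.05, against 5.91% and 5.17%, and a median log2FC of 0.041. After adjustment the call was *FERMT3*, the gene of the integrin activator kindlin-3, at 334 CPM in NC cells and 375 CPM after overexpression (log2FC 0.17, edgeR adjusted p = 0.0433). It kept that call without NC 2 but not without NC 1, NC 3 or PON1-OE 1, 2 or 3, where the adjusted p was 0.0644 to 0.345. *KANK2*, which binds talin at the adhesion rim, had a log2FC of -0.15 (adjusted p = 0.232). Of 33 kinases and adaptors, 31 were tested, with 3 higher and 2 lower unadjusted, against 5.91% and 5.17% of all genes, 0 after adjustment, and a median log2FC of 0.017. These shares are near the background. The paxillin gene *PXN* had a log2FC of 0.10, *PAK1* 0.13, the adaptor *CRK* -0.16 and *LIMS1*, the gene of the PINCH1 adaptor, -0.14, and none of them passed.

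Of 29 actin linkers, 25 were tested, with 8 higher and 2 lower unadjusted, against 5.91% and 5.17%, and a median log2FC of 0.063. After adjustment 3 were higher and 0 lower, against 0.502% and 0.176% of all genes. *FLNA*, the gene of a filamin that crosslinks actin and binds integrin beta tails, rose from 4788 to 5363 CPM (log2FC 0.16, edgeR adjusted p = 0.00795). *CSRP1*, a LIM protein of actin bundles, rose from 188 to 215 CPM (log2FC 0.19, adjusted p = 0.0448), and zyxin (*ZYX*) had a log2FC of 0.14 with an adjusted p = 0.157. Of 39 matrix ligands, 29 were tested, with 10 higher and 3 lower unadjusted, against 5.91% and 5.17%, and a median log2FC of 0.082. After adjustment 3 were higher and 1 lower, against 0.502% and 0.176%. The laminin chain *LAMB3* (261 to 357 CPM, log2FC 0.45) rose, as did osteopontin, *SPP1* (317 to 358 CPM, log2FC 0.17, adjusted p = 0.0231). The matrix glycoprotein *THBS1* fell from 54.5 to 43.6 CPM (log2FC -0.32, adjusted p = 0.0119). *LAMB3* kept its call in 14 of 14 alternative settings. Without NC 1, NC 3 or PON1-OE 3, calls ended for *FLNA* (adjusted p = 0.0593, 0.0974 and 0.0783), *CSRP1* (0.160, 0.345 and 0.303) and *SPP1* (0.0640, 0.199 and 0.117, and 0.0675 without PON1-OE 1). The call of *THBS1* ended without NC 3 (adjusted p = 0.0974) or PON1-OE 1 (adjusted p = 0.0511).

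**Figure D4:**
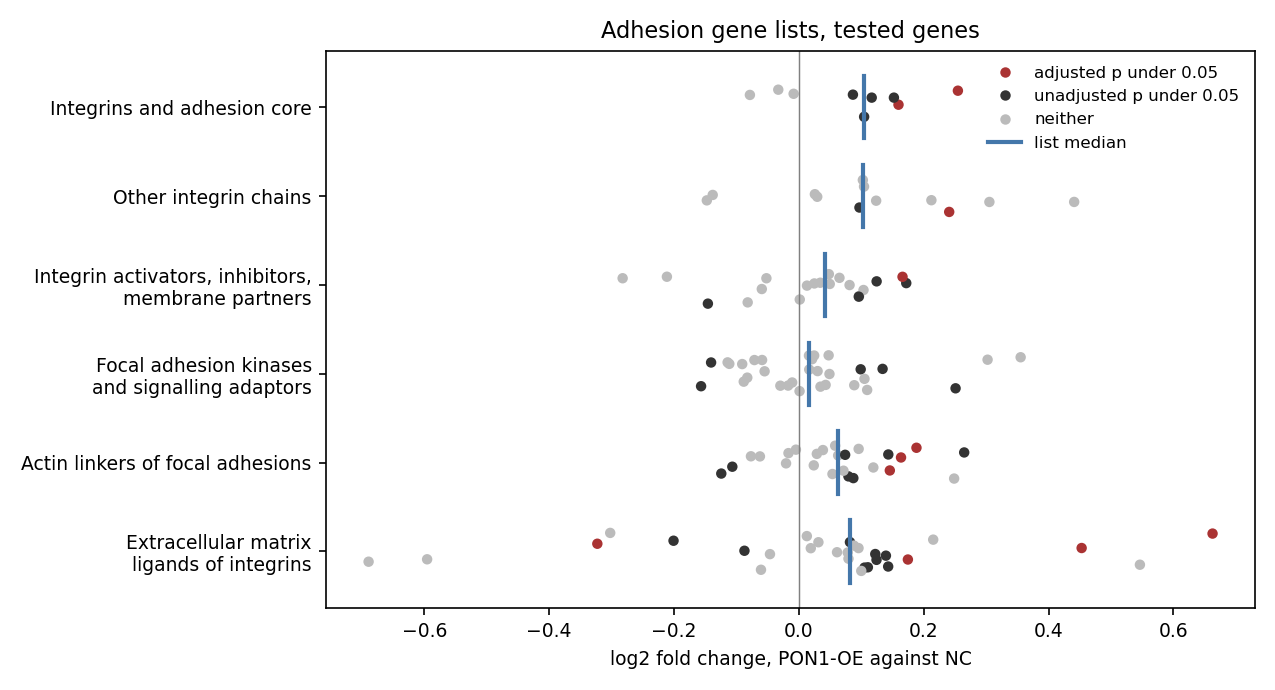
log2FC of PON1-OE over NC (horizontal axis) of each tested gene, grouped by adhesion list, with the list median as a bar and colours for genes past an adjusted or an unadjusted p of 0.05. The medians lie between 0.017 for kinases and adaptors and 0.10 for the integrins and adhesion core, beside -0.0025 over all genes tested.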

How the data were processed

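Total RNA from HCCLM3 cells was enriched for poly(A) RNA and sequenced in 3 libraries of each group. Estimated counts per gene were deposited, 1 column per library and not normalized, of which 10.5% of values were not whole. The submitters' processing notes name Bowtie2 2.2.8, HISAT2, StringTie 1.3.1 and DESeq2. The genome build and annotation were not given in the sources used here. Coordinates and exon lengths come from GENCODE release 29 (GRCh38), in which 20126 of 20381 gene identifiers matched, and promoters from RefSeq (GRCh38.p14).

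Counts were rounded to whole numbers. Genes were filtered with filterByExpr (11958 kept), scaled by TMM and tested with glmQLFit and glmQLFTest in edgeR 4.0.16 (R 4.3.3), with Benjamini-Hochberg adjustment over all genes tested and no covariate. Intervals are at 95% confidence. Totals of 15706672 to 17948383 counts leave low counts such as those of *ITGB6* imprecise, and floors cover counting error only. Ratios used exact permutation tests (scipy 1.17.1). Libraries were grouped by their titles. The fit was tested on simulated data.

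Alternatives were scaling by relative log expression (RLE) within edgeR, the test of DESeq2 1.42.0, and limma-voom (limma 3.58.1). Further ones left out the filter or asked each library for 10 counts or more. The rest were a block on the replicate number, leaving out single libraries, and a 1.5-fold threshold. Added after seeing the data were limma-trend, limma-trend with GC and length trends removed (11891 genes), principal transcript lengths, the ratios, the alternatives for genes outside the 10, the background at matched level and the motif search. The 10 genes and the lists were chosen with earlier results of these data known. Named genes are *PON1*, the 10 genes, *ITGA6*, *ITGB4* and, per adhesion list, genes with an adjusted p under 0.05 and up to 4 with the smallest unadjusted p under 0.05. Some genes that this rule takes are not reported here. *AP3M1* and *CREB3* were named for their overlap.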

Additional observations from a re-analysis of the deposited data

How the results depend on the processing

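The median log2FC of the tested genes stayed between 0.093 and 0.11 in every alternative tried. *ITGA2* and *ITGA3* kept their direction in 14 of 14 alternatives and their call in 7 and 9. *ITGA2* missed the threshold at a log2FC of 0.25 with limma-voom (adjusted p = 0.0540) and limma-trend (adjusted p = 0.0521), and with 1 library left out its log2FC spanned 0.21 to 0.31. That of *ITGA3* spanned 0.13 to 0.19, *ITGA5* 0.11 to 0.21, *ITGAV* -0.11 to 0.025 and *ITGB1* -0.031 to 0.030. *ITGB1* also turned to 0.0071 with GC and length trends removed, and the log2 ratio of *ITGAV* to *ITGB1* differed by -0.080 to 0.0047 with 1 library left out, turning without PON1-OE 3. The cause of these changes was not tested.

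The number of the 10 genes called higher was 2, but 1 with limma-voom and with limma-trend, 0 at 1.5-fold, and 0 to 3 with 1 library left out (0 without NC 1, NC 3, PON1-OE 1 or PON1-OE 3, and 3 without NC 2). At an unadjusted p it was 6, and 0 at 1.5-fold, and the number lower was 0 to 1 with 1 library left out. Unadjusted calls with 1 library left out spanned 1 to 3 in the other integrin chains, 4 to 8 in the activators and 8 to 13 in the matrix ligands. Over all genes 81 were called, against 177 without the filter (116 higher, 61 lower, where the filtered fit gave 60 and 21), 123 with DESeq2, and 11 (without NC 3) to 104 (without PON1-OE 2) with 1 library left out.

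Same-numbered libraries deviated together with correlations of -0.023 to 0.020, and 0 of 6 libraries correlated best with their own number, so the numbers were not taken as pairs. With the replicate number as a block, *ITGA2* had a log2FC of 0.25 (adjusted p = 0.0940) and *ITGA3* 0.16 (adjusted p = 0.0846), and the adjusted p of *FLNA* was 0.0600, of *SPP1* 0.0663, of *CSRP1* 0.115 and of *FERMT3* 0.0846. The block gave 0 of the 10 genes called higher, 1 of the other integrin chains at an unadjusted p, and 40 genes over all.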
